A study of Saccharomyces cerevisiae with 28 samples.

Results

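Mcm2-ChEC profiles of G1-arrested yeast cells with and without Sir2 were compared base by base over one ribosomal DNA interval. The comparison used 3 of the 28 libraries of the series, 2 from the WT strain and 1 from the *sir2* strain, and they were chosen by strain and assay from the sample labels and the library names. The series as a whole holds MNase-seq, Mcm2-ChEC and sonicated DNA from *Saccharomyces cerevisiae* at the ribosomal DNA origin of replication (rARS), and it asks where the replicative helicase sits at this origin when Sir2 is absent. In Mcm2-ChEC, the Mcm2 subunit carries micrococcal nuclease (MNase) at its C-terminus. Calcium switches the nuclease on in permeabilized cells, so that DNA next to the fusion protein is cut, and all of the DNA is then sequenced without selection by fragment size.

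Both strains are *MATa* haploids of the S288C background with the *his3*, *leu2*, *met15* and *ura3* markers, and both carry a hygromycin resistance cassette at the silent *HML* alpha locus and the *MCM2-3xFLAG-MNase-KanMx* fusion. The mutant differs by *sir2Δ::LEU2*, and no *FOB1* deletion is listed for either. All 3 libraries came from cells arrested in G1 with alpha-factor, permeabilized with digitonin and treated with calcium. The study's strain list also gives the strains different rDNA copy numbers. The profiles are averages over the repeats of the array, whose reads collect on the few copies that the reference holds, and how reads matching more than one copy were assigned is not given in the sources used here. Each genotype is represented by 1 strain. One of the WT samples is labelled a replicate, and biological replicates are described for this assay in *fob1* strains, but no label says whether these WT libraries came from separate cultures, so the spread between them may be technical. Calcium treatment for 30 s is stated for both strains, but the tags in the library names differ from this and are partly unexplained. The smaller WT library is marked with 1 min and carries a further tag, absent from the others, that the labels do not explain. A different tag is shared by *sir2* and the larger WT library. Digestion time, preparation and any treatment of the culture behind these tags thus cannot be told apart from the differences between libraries.

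The Mcm2-7 complex is the hexameric ring that unwinds DNA at replication forks. In G1 it is loaded onto origins in an inactive form by the origin recognition complex (ORC), which binds the ARS consensus sequence. Sir2 is a histone deacetylase that silences RNA polymerase II transcription in the ribosomal DNA, including a non-coding transcript called c-pro that starts left of the rARS and runs rightward through it. The array consists of tandem repeats, each with a 35S precursor gene, a 5S gene and the spacers *IGS1* and *IGS2*. The rARS lies in *IGS2*, and Reb1, a sequence-specific factor, binds closer to the 35S promoter.

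In the RefSeq annotation of the S288C reference (R64, the same sequence as sacCer3), the interval studied runs from 458000 to 460000 of chromosome XII and holds 2001 bases. From left to right it covers the 5′ end of the 35S gene (RDN37-1, 451575 to 458432, minus strand), *IGS2* (NTS2-1, 458433 to 459675), the 5S gene (RDN5-1, 459676 to 459796, plus strand) and the first 204 bases of *IGS1* (NTS1-2, 459797 to 460711). The rARS is annotated as ARS1200-1, 458991 to 459097, an intergenic stretch of 107 bases within *IGS2*. The reference chromosome XII holds this sequence 2 times. In what follows, positions in parentheses are distances in bases from the first base of the rARS, negative to the left, toward the 35S gene.

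The 4 stretches that the comparison turned on are printed from RefSeq R64, plus strand, 5′ to 3′. The first is the left flank of the rARS, 458901 to 458990 (−90 to −1), where both WT profiles were highest. Capitals mark the stretch from the steepest rise of the WT profiles within it to their maximum.
Left flank: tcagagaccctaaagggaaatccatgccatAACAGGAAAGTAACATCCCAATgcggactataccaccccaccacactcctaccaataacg
The second is the rARS itself, 458991 to 459097, inside which the *sir2* profile crossed from below to above both WT profiles. Capitals mark the match to the ARS consensus sequence, which reads TTTTACATTTT on the minus strand.
rARS: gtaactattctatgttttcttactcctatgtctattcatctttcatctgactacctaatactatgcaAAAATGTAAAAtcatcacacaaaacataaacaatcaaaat
The third, 459098 to 459210, begins right of the rARS and holds the highest point of the *sir2* profile. Capitals run from a steep rise of that profile to its maximum.
Right flank, first part: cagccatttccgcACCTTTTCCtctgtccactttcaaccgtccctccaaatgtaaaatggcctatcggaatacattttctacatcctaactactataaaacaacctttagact
The fourth, 459260 to 459380, is a further stretch of the right flank in which every base was at least 2-fold higher in *sir2*. Capitals again run from a rise to a local maximum of the *sir2* profile.
Right flank, second part: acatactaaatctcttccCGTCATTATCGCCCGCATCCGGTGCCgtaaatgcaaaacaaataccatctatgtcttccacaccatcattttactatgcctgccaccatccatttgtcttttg

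The deposited value is the number of reads over each base, unscaled. Sequenced ends of 50 bases make up this depth, so a peak marks where fragment ends lie and not the centre of a long fragment. Summed depth divided by 50 corresponded to 5022993 reads in the interval for the larger WT library, 689392 for the smaller WT library and 1332055 for *sir2*. The lowest depth at any base was 2855, 598 and 631, respectively. The 95% Poisson interval at the least covered base of the smaller WT library was 551 to 648 reads, so counting error was small beside the differences described here. It covers counting error only, because the ends of one fragment and PCR copies are not independent. Each profile was divided by its own mean over the interval, which gives the scaled depth, and only the distribution of depth within the interval was compared. A change in the total amount of Mcm2-7 on the repeat cannot be seen on this scale, and a gain in one zone must appear as a loss elsewhere.

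In *sir2* cells, a smaller share of the Mcm2-ChEC signal than in WT lay on the 35S side of the rARS and a larger share on its 5S side, and the profiles crossed within the rARS. Left of the rARS, *sir2* was below both WT libraries at 978 of 991 bases (98.7%) and above both at 0. Right of the rARS it was above both at 903 of 903 bases. With each profile divided by its mean over the Reb1 footprint instead, the same counts were 635 below and 194 above both on the left, and 903 above both on the right. Within the rARS it was below both at 34 bases and above both at 64 of 107. The last base below both was 459024 (+33), and from 459034 (+43) to the end of the interval every one of the 967 bases was above both. The ARS consensus match, at 459058 to 459068 (+67 to +77), thus lay in the part where *sir2* was higher. The mean scaled depth over the match was 1.30 in the larger WT library, 0.945 in the smaller one and 2.37 in *sir2*.

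**Figure D1:**
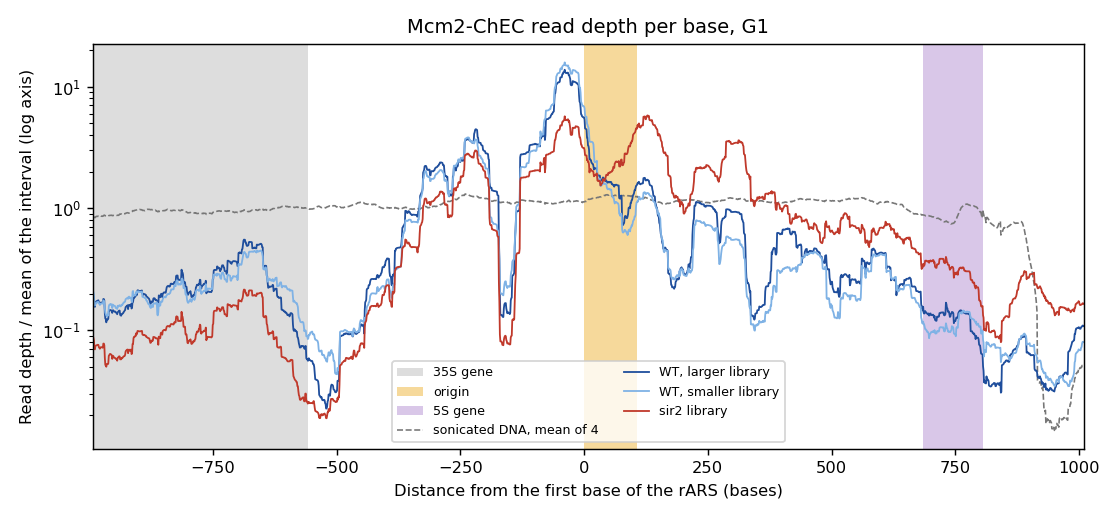
Scaled Mcm2-ChEC read depth (log axis, depth divided by the mean of the interval) at each base against the distance from the first base of the rARS, for the 3 libraries and, dashed, the mean of 4 libraries of sonicated DNA. Left of the rARS the red *sir2* line runs below both blue WT lines at 978 of 991 bases, and right of it above both at all 903. The dashed line drops near the right edge, in libraries that were mapped to modified references.

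By a rule of at least 2-fold against each WT library, 667 bases were higher in *sir2*, 33.3% of the 2001 bases, and 403 were lower, 20.1%. Between the WT libraries the same rule called 40 bases higher in the larger library, 2.00%, and 52 higher in the smaller one, 2.60%. All 403 lower bases were left of the rARS, and all 667 higher bases were in it or right of it. Lower bases were found mostly in the 35S gene (310) and in the left flank (58), and higher bases in the right flank (254 of 364), the rest of *IGS2* (145 of 214), the start of *IGS1* (133 of 204), the 5S gene (104 of 121) and the rARS (31 of 107). The bases that the rule called between the WT libraries lay on the 35S promoter side (31), in the right flank (39) and at the start of *IGS1* (22). A read spans many bases, so adjacent calls are not independent. With 2 libraries against 1, the smallest one-sided exact permutation p is 0.333, so no test was made. The count of lower bases depended on the scaling. When each profile was divided instead by its mean over the Reb1 window, 937 bases were higher and 0 lower. When it was divided by the depth outside the region from 170 bases left to 470 bases right of the rARS, 764 were higher and 183 lower. The Reb1 window itself held less of the *sir2* profile, with a mean scaled depth of 1.27 and 1.11 in WT and 0.731 in *sir2*. These are Mcm2-ChEC depths and do not measure Reb1 binding. Over the Reb1 motif within the window, the mean scaled depths were 0.905 and 0.793 in WT and 0.490 in *sir2*. The study used a Reb1 footprint to scale its MNase-seq and scaled its ChEC to all reads.

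**Figure D2:**
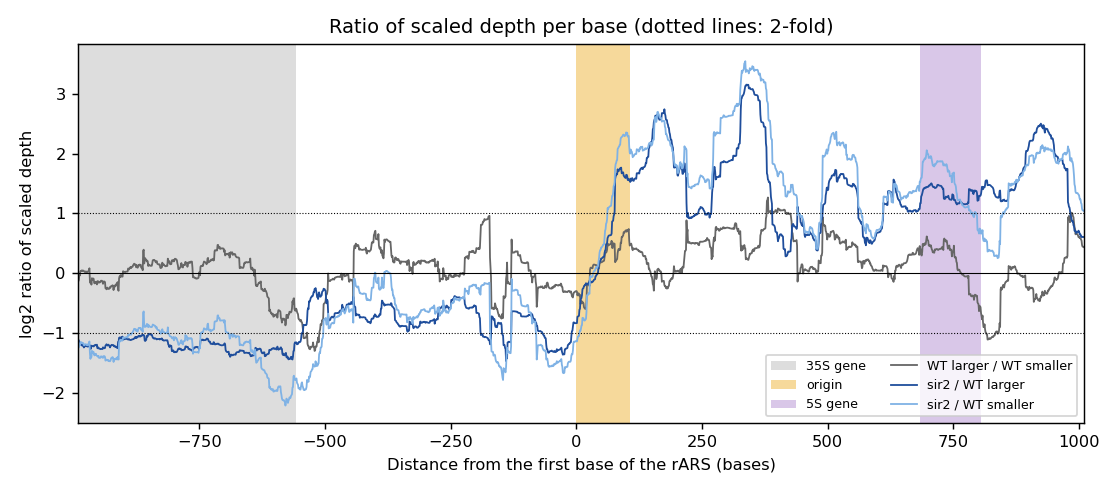
The log2 ratio of scaled depth at each base for *sir2* over each WT library (blues) and for the larger over the smaller WT library (gray), against the distance from the first base of the rARS. The blue lines pass from below 0 to above 0 inside the rARS, and the gray line passes the dotted 2-fold lines at 92 bases.

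The mean position of the depth between 170 bases left and 470 bases right of the rARS was +18.6 bases in the larger WT library and +0.672 in the smaller one, a mean of 9.66 ± 12.7 (SD, n = 2). In *sir2* it was +122, a difference of 113 bases to the right. An even profile would give 150, and sonicated DNA, which has no footprints, gave 149 to 151 in 4 libraries. The share of the *sir2* depth that lay elsewhere than in the WT mean was 39.1%. It was 36.6% against the larger and 41.6% against the smaller WT library, and 9.55% between the WT libraries. Reading from the left, 50% of the depth of the interval had been passed at 458946 (−45) and 458948 (−43) in WT and at 459094 (+103) in *sir2*. The region from 170 bases left to 470 right of the rARS held similar shares of the interval in all 3 libraries, 67.9% and 71.3% in WT and 73.1% in *sir2*.

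The left flank is where ChEC signal was most concentrated in WT cells. These 90 bases held 39.0% of the depth of the interval in the larger WT library and 46.2% in the smaller one, a mean of 42.6% ± 5.13 (SD, n = 2), although they make up 4.50% of the bases. In *sir2* they held 17.3% (95% Wilson interval 17.2% to 17.4%), a ratio to the WT mean of 0.407. This interval covers counting error only and not the spread between libraries. The *sir2* share was below both WT shares by far more than the 7.26 points between them. With the Reb1 window as the reference, the ratio was 0.656.

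Within the left flank, the shape of the peak was kept. Across its 90 bases the log depths correlated with r = 0.991 between the WT libraries and with r = 0.985 and 0.977 between *sir2* and each of them. All 3 libraries had a local maximum at the same base, 458952 (−39), with a scaled depth of 13.8 and 15.8 in WT and 5.71 in *sir2*. The longest run of lower bases here was 458924 to 458981 (58 bases), with mean scaled depths of 10.7, 12.6 and 4.45. The base in it with the largest fold was 458964 (−27), with scaled depths of 10.4 and 12.8 in WT and 4.04 in *sir2*, which is 2.57-fold lower than the nearer WT library.

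The right flank, 364 bases between the rARS and +470, showed the opposite difference. It held 12.5% and 9.09% of the depth in WT (10.8% ± 2.38, SD, n = 2) and 38.7% in *sir2* (95% Wilson interval 38.7% to 38.8%), 3.59 times the WT mean. It makes up 18.2% of the bases, so that WT was below and *sir2* above an even spread. Relative to the Reb1 window the ratio was 5.90. The libraries did not overlap here on either scale.

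The *sir2* profile of this flank differed in form from the WT profiles, although some of its peaks lay near WT peaks. Its highest point of the whole interval was 459119 (+128), with a scaled depth of 5.80 against 1.72 and 1.34 in WT, and it exceeded slightly the *sir2* maximum of 5.71 left of the rARS, 167 bases away. The next right-hand maximum was at 459303 (+312), where *sir2* had 3.63 and WT 0.929 and 0.554. Lower maxima followed the same order of libraries, with 2.27 against 1.05 and 0.731 at 459238 (+247) and 1.39 against 0.436 and 0.188 at 459370 (+379). Both WT libraries had small maxima of their own at 459113 (+122) and 459218 (+227), 6 and 20 bases from the nearest *sir2* maxima. At 459113 the scaled depths were 1.78 and 1.36 in WT and 5.69 in *sir2*. In WT no maximum near +312 was among the highest 6 of either library. Over the flank, the log depths correlated with r = 0.929 between the WT libraries and with r = 0.650 and 0.683 between *sir2* and each WT library.

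**Figure D3:**
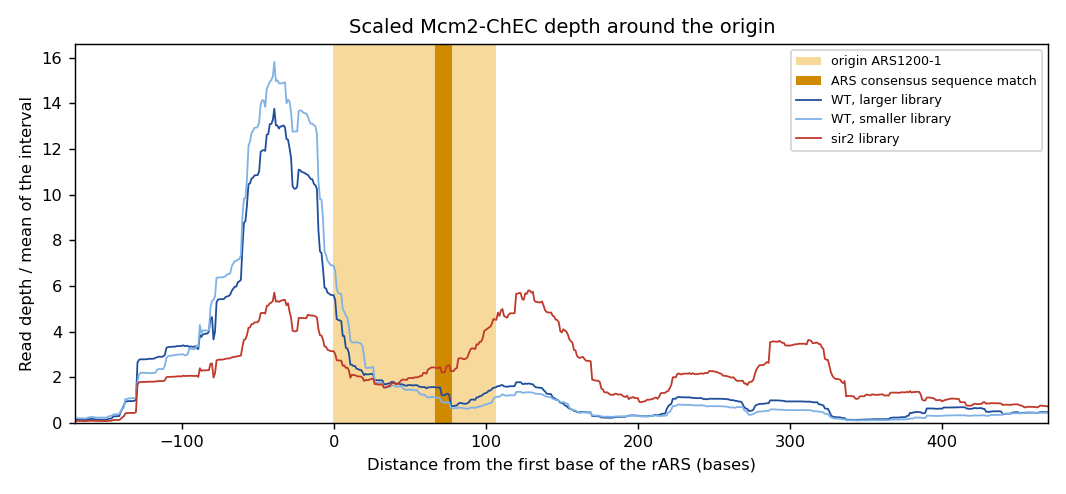
Scaled Mcm2-ChEC depth (linear axis) from 170 bases left to 470 bases right of the first base of the rARS, with the rARS in light orange and the ARS consensus match in dark orange. WT peaks at −39 with 13.8 and 15.8, and *sir2* has peaks of 5.71 at −39, 5.80 at +128 and 3.63 at +312.

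The largest folds over the interval, among bases where the higher group reached a scaled depth of 0.25, were in troughs of the WT profile. At 459329 (+338), in the second printed part of the right flank, the scaled depth was 0.133 and 0.112 in WT and 1.18 in *sir2*, which is 8.91-fold over the nearer WT library. At 459153 (+162), in the first printed part, it was 0.452 and 0.437 in WT and 2.84 in *sir2*, a 6.28-fold difference. The 2 printed parts coincide largely with runs of higher bases. The run from 459067 to 459210 (144 bases) began inside the rARS and had mean scaled depths of 0.861 and 0.702 in WT and 3.10 in *sir2*. The run from 459260 to 459380 (121 bases) had means of 0.525, 0.322 and 2.15. Over bins of 50 bases right of the rARS, the ratio to the larger WT library ranged from 1.55 to 5.18 and that to the smaller one from 1.51 to 8.05, and in both comparisons the highest bin was the one that starts at 459300 (+309).

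Read starts gave a finer view of where fragments began. The left end of a read makes the depth rise from one base to the next, and the 10 largest rises of each library were compared. The *sir2* library shared 6 of its 10 with each WT library, as many as the WT libraries shared with each other, and 5 were common to all 3. One of these, at 458862 (−129), was the largest rise in *sir2*, with 1.61 and 0.688 units of scaled depth in WT and 1.20 in *sir2*. The rise at 458931 (−60), where the capitals of the left flank sequence begin, was 1.38 and 1.67 in WT and 0.378 in *sir2*.

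The 3 rises of *sir2* that were among the 10 of neither WT library all lay right of the first base of the rARS, where neither WT library had any. At 459278 (+287), the first capital of the second right flank sequence, the rise was 0.908 in *sir2* and 0.125 and 0.0640 in WT. At 459111 (+120), the first capital of the other right flank sequence, it was 0.846 against 0.165 and 0.138. At 459073 (+82), 5 bases beyond the ARS consensus match, it was 0.423 against 0.0844 and 0.0230. The sequences across these rises, with the base at which the depth rose as the first capital, show T, C and C as the base before the rise.
459073: gtaaaatcatCACACAAAAC
459111: ccatttccgcACCTTTTCCT
459278: aatctcttccCGTCATTATC
MNase prefers to cut next to A or T, but the rises may mix cuts with points inside fragments. The base before the rise was A or T at 6 of 10 rises in each WT library and at 5 of 10 in *sir2*, against 59.1% of the bases of the interval.

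Within the rARS the share of depth moved less than in its flanks. It was 9.75% and 9.93% in WT (9.84% ± 0.124, SD, n = 2) and 13.0% in *sir2*, a ratio of 1.32. This sum joined opposite differences on its left and right sides, and the shape of the profile was not kept: log depths correlated with r = 0.963 between the WT libraries and with r = −0.229 and −0.354 between *sir2* and each of them. All 3 profiles fell to a low point within the rARS and rose again toward its right end. The low point was 0.732 at 459070 (+79) in the larger WT library and 0.604 at 459079 (+88) in the smaller one, both to the right of the ARS consensus match. In *sir2* it was 1.54 at 459024 (+33), left of the match. At the last base of the rARS the scaled depth was 1.54 and 1.12 in WT and 4.52 in *sir2*.

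Left of the left flank lie the zone of the first nucleosome, which includes the start of c-pro, and the 35S promoter side with the Reb1 site. The first nucleosome zone, 458721 to 458900 (−270 to −91), held 19.9% and 17.7% of the depth in WT and 13.0% in *sir2*, a ratio of 0.691. With the Reb1 window as the reference this direction flipped, to a ratio of 1.13. Its maximum at 458772 (−219) had scaled depths of 4.47 and 3.68 in WT and 2.99 in *sir2*. The base with the largest fold below WT in the whole interval, 458851 (−140), was in a trough of this zone, with 0.482 and 0.515 in WT and 0.174 in *sir2*. The 35S promoter side, 458433 to 458720, held 9.19% and 8.12% in WT and 5.32% in *sir2*, a ratio of 0.614. It was 1.00 relative to the Reb1 window, which lies mostly in this zone. The interval holds 1 match to the Reb1 motif TTACCCG, searched on both strands, at 458638 to 458644 (−353 to −347, minus strand). Of 538 windows of 2001 bases on chromosome XII, 12.1% hold such a match, and 12.3% hold one to the ARS consensus sequence.

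The part of the 35S gene in the interval, 458000 to 458432, had low signal in all libraries. It held 5.16% and 4.96% of the depth in WT and 2.21% in *sir2*, a ratio of 0.436 (0.708 relative to the Reb1 window). All 3 of the longest runs of lower bases were here or began here: 458299 to 458446 (148 bases), 458000 to 458106 (107 bases) and 458179 to 458243 (65 bases). In the first, the mean scaled depths were 0.252 and 0.264 in WT and 0.101 in *sir2*.

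Right of the right flank, the signal was also low and higher in *sir2*. The rest of *IGS2* held 3.21% and 2.71% in WT and 6.80% in *sir2*, a ratio of 2.30. The 5S gene, which RNA polymerase III transcribes, held 0.759% and 0.671% in WT and 1.90% in *sir2*, a ratio of 2.66. The start of *IGS1* held 0.573% and 0.618% in WT and 1.74% in *sir2*, a ratio of 2.93. The longest run of higher bases, 459602 to 459775 (174 bases), spanned the boundary of *IGS2* and the 5S gene, with mean scaled depths of 0.182 and 0.158 in WT and 0.430 in *sir2*. A further run of 131 bases in *IGS1*, 459843 to 459973, had 0.0537 and 0.0568 in WT and 0.198 in *sir2*. These zones made up 26.9% of the bases, and all 3 libraries were below an even spread in each of them.

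**Figure D4:**
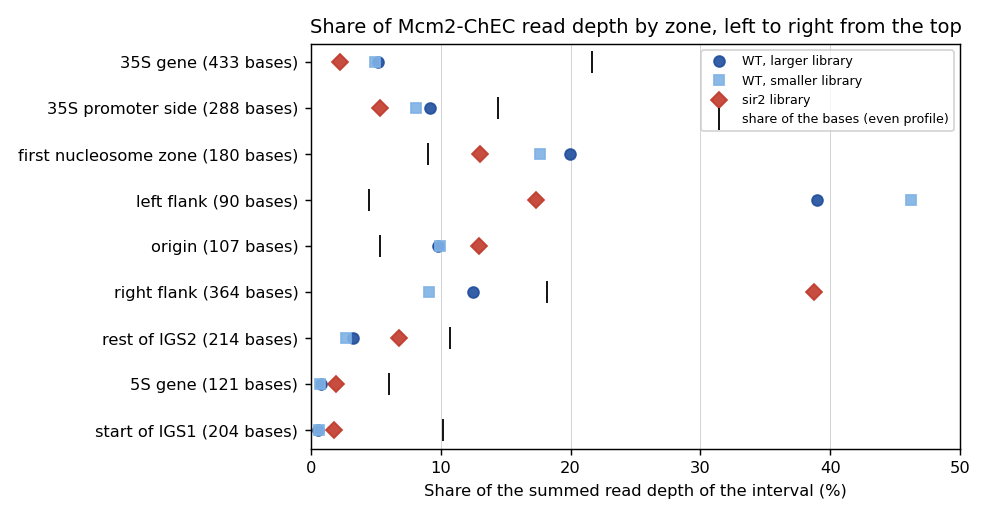
Share of the summed read depth of the interval in each of 9 zones, ordered from the 35S side at the top, for the 3 libraries, with the share of the bases as black ticks. The *sir2* share lies below both WT shares in the 4 upper zones and above both in the 5 lower ones.

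The size of the difference was set beside pairings of *sir2* with *SIR2* libraries from other strains or another assay, as shares of the depth up to the right end of the 5S gene. On this basis the ratio of *sir2* to the WT mean was 0.411 in the left flank and 3.64 in the right flank. MNase-seq of G1 cells, which cuts all accessible DNA, had 1 library for each genotype, from S288C strains without the *MCM2* fusion, and gave 0.587 and 1.43. The strains whose rDNA array had been expanded anew, without a terminator, are not of the S288C background. They carry *fob1Δ::HIS3* and a deletion on the right arm of chromosome XII, and their *sir2* strain also carries *hmlαΔ::NAT*, which their *SIR2* strain lacks. In these strains Mcm2-ChEC gave 0.666 and 1.44 after 30 s of calcium and 0.596 and 1.37 after 1 min, with 1 library for each genotype and time. The left flank share was lower, and the right flank share higher, in *sir2* in each pairing, including those with the calcium time matched. The folds were larger in the comparison described here than in the other pairings. MNase-seq also reads nucleosome footprints, and the depth is not split by fragment size. Its folds thus mix nucleosome and helicase signal and are not the same measure as those of Mcm2-ChEC. The *SIR2* strain with expanded rDNA already held 24.9% and 26.5% of the depth in the right flank, against 12.5% and 9.15% in WT, whereas the *sir2* shares were 35.8%, 36.2% and 39.4%. No pairing shown here had replicates of both genotypes at the same setting. In the expanded strains, the libraries labelled as replicates differ in the calcium time in their names. The series also holds replicate Mcm2-ChEC libraries of S288C *fob1* and *sir2 fob1* strains, which were not used. The difference in fold between pairings was not tested.

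**Figure D5:**
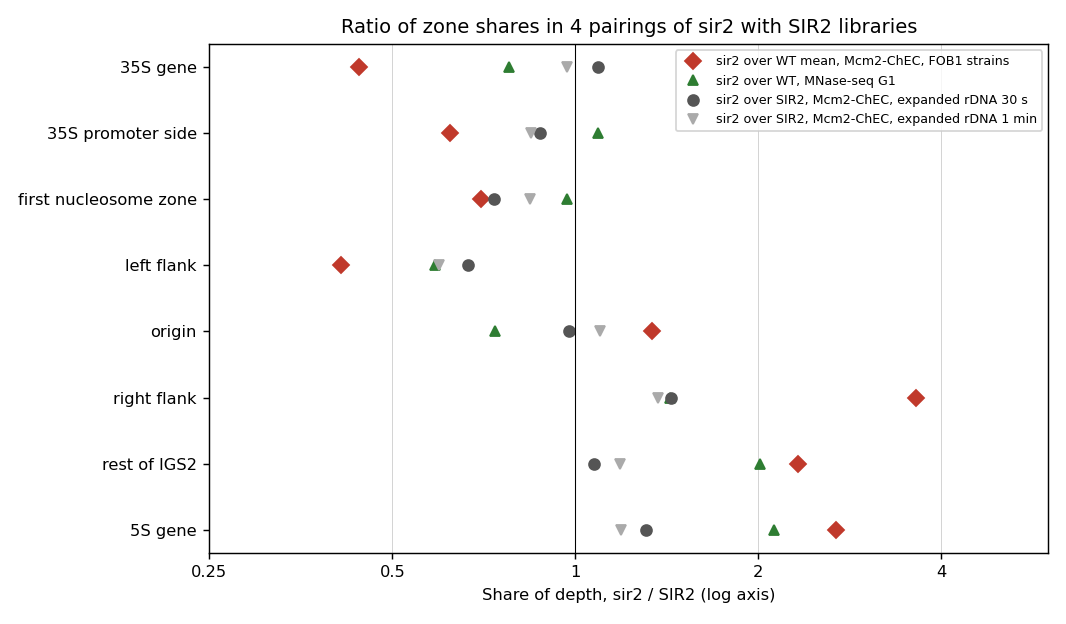
Ratio of the share of depth, *sir2* over *SIR2*, in 8 zones for the comparison described here (red) and 3 other pairings, on a log axis. All 4 ratios are below 1 in the left flank, between 0.411 and 0.666, and above 1 in the right flank, between 1.37 and 3.64.

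Away from the flanks the pairings differed. For the 35S gene the ratio was 0.441 here, 0.778 in MNase-seq and 1.09 and 0.969 in the expanded strains, and for the rARS it was 1.33, 0.737, 0.976 and 1.10. The ratio for the 5S gene was above 1 in all 4, at 2.69, 2.12, 1.31 and 1.19. Sonicated DNA of 4 libraries from untagged *fob1* strains with expanded rDNA held 5.21% to 5.31% of the depth in the left flank and 21.5% to 22.2% in the right flank, with *sir2* and *SIR2* libraries within these ranges.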

How the data were processed

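The authors sequenced 50 bases from both ends of each fragment, and the deposited table gives coverage (signal), the read depth at each of 2001 bases for 28 libraries, not scaled to library size. The submitters' processing notes name GSNAP, Picard and bedtools and the build sacCer3, and tool versions are not given in the sources used here. Of the columns, 13 were used and 15 others were not. WT columns were matched to their group and not to single samples, and are named by their depth. The sample labels give the *SIR2* status of the Mcm2-ChEC libraries of S288C *fob1* strains. One label adds that its file name gives the wrong status, so their columns were not matched to samples and were not used here.

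Each profile was divided by its mean. A base was called at 2-fold or more against both WT libraries. The named positions were the 6 highest maxima per library at least 60 bases apart, the 4 largest folds and the 3 longest runs per direction, and the fourth run of each direction was added after its values were seen. Zones were set as distances from the rARS. Shares have 95% Wilson intervals, which take reads as independent and cover counting error only. The zones, positions and comparison were chosen with earlier results of these data known. Alternatives tried were scaling to the Reb1 window or to the depth outside the origin region, background subtraction and division by sonicated DNA. Other folds, bins, shifted bounds and leaving out each WT library were also tried. Scripts ran in Python 3.11.15 with scipy 1.17.1, numpy 2.4.6 and pandas 2.3.3, and plots were made with matplotlib 3.10.9.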

Additional observations from a re-analysis of the deposited data

How the results depend on the processing

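Of 45 recomputed values for 6 results, 8 are ratios or differences against a single WT library, which lie at the ends of the WT spread by construction and say nothing of stability. Of the other 37, 29 stayed within the limits set for them (1.5 times for counts, the spread between the WT libraries for other values), 8 moved and 0 reversed. Counts of called bases cannot fall when a WT library is left out, so the direction of those changes was fixed by the rule and only their size is informative. With scaling to the Reb1 window, the count of lower bases was 0, the left flank ratio 0.656 and the right flank ratio 5.90. With scaling to the depth outside the origin region, the count of lower bases was 183 and the left flank ratio 0.456. A 3-fold rule gave 354 higher and 0 lower bases, and a 1.5-fold rule gave 716 lower bases. Leaving out 1 WT library gave 730 to 799 higher bases, 493 to 545 lower bases, 36.6% to 41.6% of the depth in a different place, a shift of the mean position of 104 to 122 bases, left flank ratios of 0.375 to 0.444 and right flank ratios of 3.11 to 4.26. No paired analysis was possible because the *sir2* group has 1 library. Depth did not limit these comparisons, whereas the single *sir2* library did. The cause of the differences between scalings was not tested beyond the lower depth of *sir2* in the Reb1 window.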

Other observations

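In 5 of the 9 zones, log depths of *sir2* correlated more closely with those of the larger WT library than the WT libraries did with each other. Across the 121 bases of the 5S gene, log depths correlated with r = 0.936 between the larger WT library and *sir2*, with r = 0.109 between the WT libraries and with r = −0.120 between the smaller WT library and *sir2*. Across the 433 bases of the 35S gene the values were 0.989, 0.916 and 0.874 in the same order. The larger WT library and *sir2* were also the closer pair on the 35S promoter side (0.996 against 0.978 between the WT libraries), in the first nucleosome zone (0.993 against 0.972) and at the start of *IGS1* (0.476 against 0.426). The reverse held in the left flank, the rARS, the right flank and the rest of *IGS2*, where the values were 0.379 against 0.918 in the last of these. Over all 2001 bases the order was different, with r = 0.975 between the WT libraries and r = 0.799 and 0.733 between *sir2* and the larger and smaller WT library. These are correlations over neighbouring bases that share reads. The larger WT library and the *sir2* library share a tag in their names that the smaller WT library lacks, and its part in these values was not tested.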
